A study of Mus musculus with 18 samples.

Results

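Unstressed back-skin epidermis was compared between mice without the aryl hydrocarbon receptor (AhR) and mice that carry it, over all array rows named by a single gene symbol. The comparison was chosen by sample title and uses 6 of the 18 arrays in the series, 3 for each genotype. The remaining 12 arrays hold the same genotypes 6 h and 24 h after tape stripping, a mechanical stress made by pressing adhesive film on shaved skin and pulling it off. The KO animals were AhR-/- mice of the line B6.129-AhRtm1Bra/J, and the WT animals were AhR+/+ littermates. All were female, and the labels give the background as B6;129 for both genotypes. The sources used here do not give their age. At 0 h the skin of both genotypes was unstressed. The null allele is carried in every cell of the animal, so keratinocytes, T cells and Langerhans cells of the KO sheets all lack it. RNA came from whole epidermal sheets. A lower value in such a bulk sample can mean fewer cells of a type or less RNA per cell, and the arrays cannot tell these apart.

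AhR is a transcription factor that waits in the cytoplasm with chaperones, binds small ligands from food, microbes and light-modified tryptophan, and then pairs with ARNT in the nucleus at DNA sites with the core GCGTG. Its classic targets encode cytochrome enzymes that clear those ligands and a repressor that limits the response. Mouse epidermis holds a resident layer of gamma-delta T cells with dendrites, whose receptor uses the Trgv5 variable segment, and Langerhans cells, the antigen-presenting cells of the epidermis. AhR is known to be needed for the upkeep of these T cells in the skin.

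Each deposited value is the log-scale distance, taken here as log2, of a row from its own median over the 18 arrays. Such centred values rank arrays within a gene, but they hold no absolute level, so it could not be checked whether the markers of epidermis were present at a high level. The 6 arrays differed in their spread over all rows, with SDs from 0.141 to 0.222. WT array 1 stood apart from the other WT arrays. Over all named rows it correlated at r = 0.627 with KO array 3 and at r = 0.382 with KO array 2, but at only 0.043 and 0.13 with WT arrays 2 and 3. Every sample also carries a number in its description, whose meaning the labels leave unstated. KO array 1 (2374) and WT arrays 2 and 3 (2369 and 2370) have numbers under 3000, whereas KO arrays 2 and 3 (3055 and 3121) and WT array 1 (3059) have numbers over 3000. Each class thus holds both genotypes in unequal numbers, and the difference is also given within each class where it matters. Among lists for other cells that could cling to a sheet, the median differences between genotypes were -0.02 for dermal fibroblast genes, 0.01 for endothelial genes, 0.0046 for skeletal muscle genes, -0.04 for adipocyte genes and 0.0085 for neutrophil, monocyte and mast cell genes, and no member of these lists passed the test.

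**Figure D1:**
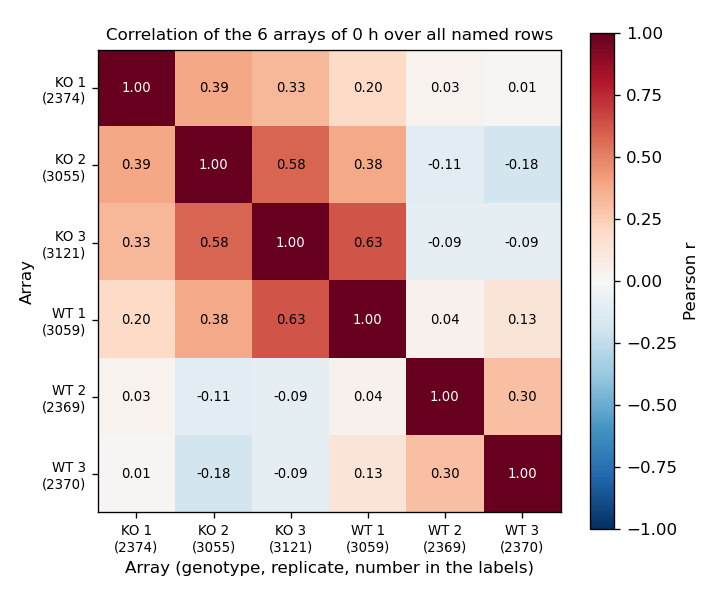
Pearson correlation of centred values between each pair of the 6 unstressed arrays, over all rows with a single gene symbol; the number of each sample in the labels stands in brackets. WT array 1 was closest to KO array 3 (r = 0.627), while KO arrays 2 and 3 correlated at 0.58 and WT arrays 2 and 3 at 0.298.

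In unstressed skin, loss of AhR went with differences in 23 genes that passed the test, from 1.29-fold to 8.62-fold and most of them downward. Trgv5, Cd3e, Trat1, Il2rb, Klrb1b, Prf1 and Rgs1, genes known from T cells and NK cells, fell in KO, as did the prostaglandin enzyme gene Ptgs2 and the phagocytosis bridge gene Mfge8. Of the genes that passed, only a complement inhibitor, a ubiquitin ligase gene and Lypd6b rose. By limma's moderated test with Benjamini-Hochberg adjustment, 23 of 23521 rows, each of a different gene, had an adjusted p under 0.05, which is 0.0978% of the rows. Of these, 20 were lower in KO (0.085% of rows) and 3 were higher (0.0128%). A further look at the unadjusted p found 1994 rows under 0.05, or 8.48%. The size of the 23 differences ran from 1.29-fold (Anp32b) to 8.62-fold (Trgv5). In none of the 23 did the KO and WT arrays overlap, whereas the arrays did not overlap in 13.7% of all rows.

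The number of calls rested on single arrays. It was 59 without WT array 1, of which 17 were among the 23, and 5 without KO array 2, 5 without KO array 3, 7 without WT array 2 and 6 without WT array 3. Without KO array 1 it was 34, of which 13 were among the 23. Trgv5, Trat1, Rgs1, Mfge8 and Cd59a passed in each of the 6 fits that left out 1 array of 0 h, and the other 18 genes passed in 0 to 3 of them. A fit to the 6 unstressed arrays alone called 0 rows with limma, with 4 residual degrees of freedom, a smallest adjusted p of 0.106 and 2217 rows at an unadjusted p under 0.05, all 23 genes among them. Within both classes of label number, each of the 23 differences kept its sign.

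**Figure D2:**
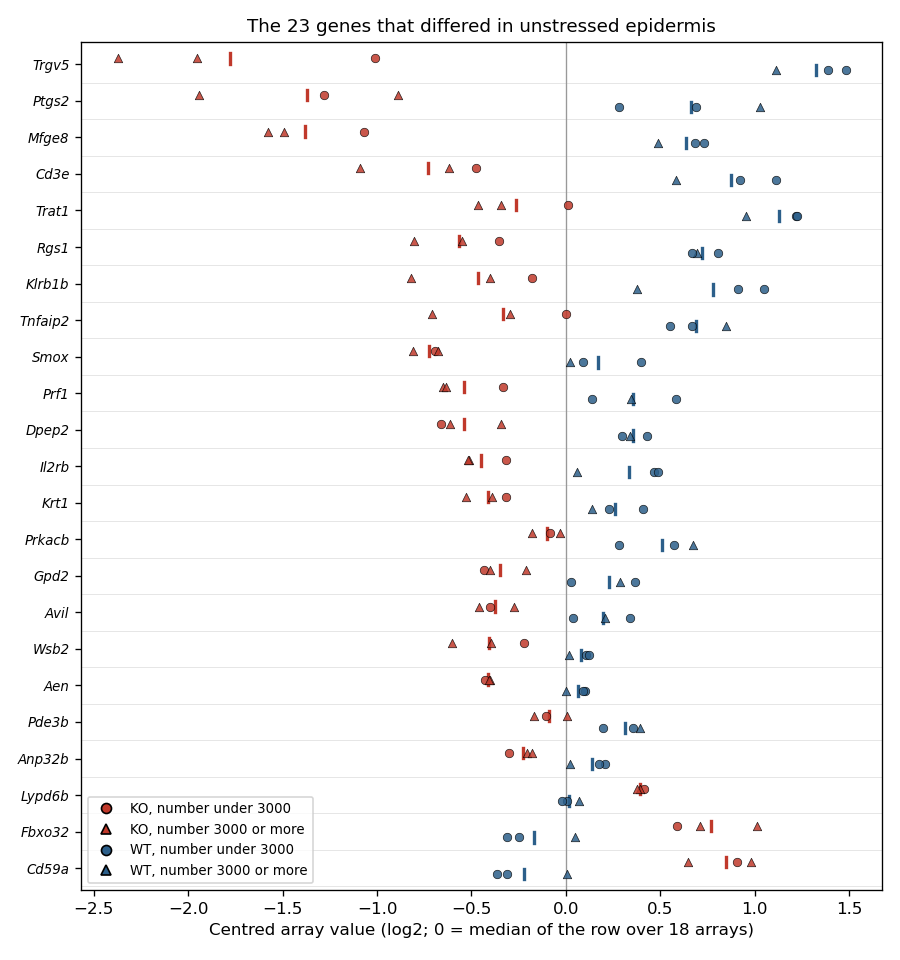
Centred log2 value in each unstressed array for the 23 genes that passed, with KO in red and WT in blue, circles for label numbers under 3000, triangles for 3000 or more, and a vertical tick at each group mean. KO and WT arrays do not overlap in any of the genes, from Trgv5 (KO mean -1.78, WT mean 1.33) to Cd59a (KO mean 0.85, WT mean -0.22).

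Trgv5 had the largest fall of all genes that passed, and Cd3e and Trat1 of the T cell receptor list also fell. Trgv5 encodes the variable segment of the gamma chain in the receptor of the resident epidermal T cells. Its centred values were -1.01, -2.37 and -1.96 in KO arrays 1 to 3 and 1.11, 1.48 and 1.39 in WT arrays 1 to 3. The SD was 0.19 (n = 3) among WT arrays and 0.70 (n = 3) among KO arrays, of which array 1 was the least low. Trgv5 fell by 3.11 (SE 0.294; 95% interval -3.74 to -2.48; limma adjusted p = 0.000431). The neighbouring segment Trgv6, which gamma-delta T cells outside the epidermis use, differed by -0.0062 (95% interval -0.122 to 0.11). Its 6 unstressed arrays all lay between -0.10 and 0.02. With no absolute level, it is not known whether the Trgv6 row detects a transcript at all. Cd3e, a signalling chain of every T cell receptor, was at -0.48, -0.62 and -1.09 in KO and 0.59, 1.11 and 0.93 in WT. It fell by 1.61 (SE 0.228; limma adjusted p = 0.0145). Cd3e lost its call without KO array 2, KO array 3, WT array 2 or WT array 3, with limma adjusted p from 0.0665 to 0.093. Trat1, which holds receptor chains at the surface, was at 0.01, -0.34 and -0.47 in KO against 0.95, 1.22 and 1.22 in WT, and fell by 1.40 (SE 0.146; limma adjusted p = 0.000606). In all 3 genes the highest KO array was array 1 and the lowest WT array was array 1.

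The rest of the receptor list moved less. Of its 16 measured members, these 3 passed, all lower, and 8 were lower at an unadjusted p under 0.05, with 0 higher. The background for genes is 0.0992% passing, with 4.77% lower and 3.82% higher at the unadjusted p. These shares over all genes are also the background for the counts of every list below. The median difference over the list was -0.29, against -0.0042 over all genes. The other CD3 chain genes were Cd3g, with a difference of -1.26 (adjusted p = 0.208), and Cd3d, with -0.39 (adjusted p = 0.54). In Cd3g the 3 KO arrays ranged from -1.48 to -0.02 and the 3 WT arrays from 0.16 to 0.67. The adaptor gene Lcp2 differed by -0.51 and Lat by -0.38, and the phosphatase gene Ptpn22, a brake on receptor signalling, by -0.39 (adjusted p = 0.0955). Zap70, the kinase that binds the CD3 chains, differed by -0.19 (adjusted p = 0.847), and 4 of the 16 members were above 0, up to 0.15 in Skap1. The mean of the list in KO arrays 1 to 3 was -0.12, -0.31 and -0.45, and in WT arrays 1 to 3 it was 0.16, 0.30 and 0.38.

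Among 33 measured T cell surface markers, Il2rb passed, 9 were lower and 4 higher at the unadjusted p, and the median difference was -0.04. Il2rb encodes a receptor chain for interleukin-2 and interleukin-15, the latter a survival signal of epidermal T cells. Its KO values were -0.32, -0.51 and -0.52 and its WT values 0.06, 0.46 and 0.49, so WT array 1 was nearest to KO. Il2rb fell by 0.79 (SE 0.11; limma adjusted p = 0.0139), and the call was lost without KO array 2 or 3 or WT array 2 or 3 (limma adjusted p from 0.0665 to 0.103). Cd7 had the third-lowest difference of all genes that did not pass, -1.67 (SE 0.312; adjusted p = 0.0659). Its arrays did not overlap, with KO at -0.08, -0.64 and -1.56 and WT at 0.51, 1.13 and 1.10. Il7r, the receptor for interleukin-7, differed by -0.58 (adjusted p = 0.204), Lag3 by -0.46 (adjusted p = 0.131) and the adhesion receptor gene Cd96 by -0.53 (adjusted p = 0.192). The coreceptor genes of alpha-beta T cells did not share this sign: Cd8a differed by 0.30 (adjusted p = 0.3) and Cd4 by 0.13 (adjusted p = 0.887).

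Of 29 measured cytotoxic and NK receptor genes, Prf1 and Klrb1b passed, both lower, and 6 were lower and 0 higher at the unadjusted p. Prf1 encodes perforin, the pore protein of killer lymphocytes. Its values were -0.33, -0.65 and -0.63 in KO and 0.35, 0.58 and 0.14 in WT, a fall of 0.89 (SE 0.14; limma adjusted p = 0.0267). Without KO array 2, KO array 3 or WT array 2 the limma adjusted p of Prf1 was between 0.098 and 0.176. Klrb1b, a lectin-like receptor of NK cells and some T cells, was at -0.18, -0.40 and -0.82 in KO and 0.38, 0.91 and 1.05 in WT, and fell by 1.25 (SE 0.207; limma adjusted p = 0.0372). Here WT array 1 was again the lowest WT array, and without KO array 2 or 3 or WT array 2 or 3 Klrb1b did not pass (limma adjusted p from 0.141 to 0.234). Its relatives Klrb1c and Klrb1f differed by -0.0026 (adjusted p = 0.997) and -0.22 (adjusted p = 0.719). Nkg7, a granule gene, differed by -0.60 and the chemokine gene Xcl1 by -0.75, and neither passed (adjusted p = 0.218 and 0.359). The granzyme genes Gzma and Gzmb stood at 0.01 and 0.15, on the other side of 0 from perforin.

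Rgs1 encodes a regulator that shortens chemokine-receptor signals and is abundant in tissue-resident lymphocytes. The KO values were -0.35, -0.55 and -0.80 and the WT values 0.69, 0.81 and 0.67, with almost no spread among the WT arrays (SD 0.07, n = 3). It fell by 1.29 (SE 0.125; limma adjusted p = 0.000431). It was the only 1 of 27 measured genes of lymphocyte signalling and activation that passed or was under 0.05 without adjustment. Its relatives Rgs2 and Rgs16 differed by -0.06 and 0.06. Keratinocytes and thymic epithelium express the Skint family, whose founding member is needed for the epidermal gamma-delta T cells to mature. None of the 11 measured Skint genes passed, but all 11 differences were above 0, from 0.17 (Skint11) to 0.89 (Skint7), with a median of 0.49, and 6 were higher at the unadjusted p. Their mean in KO arrays 1 to 3 was 0.81, 0.66 and 0.80, above the 0.39, 0.14 and 0.21 of WT arrays 1 to 3. The Skint genes are close paralogs in a single cluster, so array probes may read more than 1 of them.

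None of the 37 measured genes of Langerhans cells and antigen presentation passed. The median difference was -0.13, with 7 lower and 2 higher at the unadjusted p. Within the classes of label number the median was nearer 0, at -0.053 under 3000 and -0.057 from 3000 up. Cd207 encodes langerin, the defining lectin of these cells. Its values were 0.14, -0.33 and -0.84 in KO and 0.12, 0.44 and 0.51 in WT, so KO array 1 overlapped WT array 1. The difference was -0.70 (SE 0.208; adjusted p = 0.287). Csf1r, the receptor for the growth factors that maintain Langerhans cells, differed by -0.90 (adjusted p = 0.191), again with WT array 1 (-0.11) beside KO array 1 (-0.14). The class II genes H2-Aa, H2-Ab1 and H2-Eb1 stood at -0.41, -0.46 and -0.31 (adjusted p from 0.648 to 0.737), and in each of them WT array 1 was below KO array 1. The mean over the list was 0.06, -0.10 and -0.33 in KO arrays 1 to 3 and -0.11, 0.08 and 0.15 in WT arrays 1 to 3.

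Of 35 measured genes for eicosanoids, the lipid mediators made from arachidonic acid, Ptgs2 and Dpep2 passed, both lower. Ptgs2 encodes inducible cyclooxygenase, which commits arachidonic acid to prostaglandins. Its values were -1.28, -1.94 and -0.89 in KO and 1.03, 0.28 and 0.69 in WT, with the spread in both groups among the widest of the 23 genes (SD 0.53 and 0.37, n = 3). Ptgs2 fell by 2.04 (SE 0.333; 95% interval -2.75 to -1.33; limma adjusted p = 0.0372). Ptgs2 lost its call when any 1 of the 6 arrays was left out, with limma adjusted p from 0.0574 to 0.225 and differences from -2.28 to -1.75. Dpep2, a membrane dipeptidase that turns leukotriene D4 into leukotriene E4, fell by 0.89 (SE 0.148; limma adjusted p = 0.0372). KO arrays were at -0.66, -0.34 and -0.61 and WT arrays at 0.34, 0.30 and 0.43. A second row of Dpep2 went the other way, at 0.33 (adjusted p = 0.742), and the first row kept its call only without WT array 1 (limma adjusted p = 0.0488, and 0.093 to 0.234 without each of the others). Alox5, the first enzyme of leukotriene synthesis, differed by -0.82 (adjusted p = 0.0857) and Ltc4s, which makes leukotriene C4, by -0.34 (adjusted p = 0.156). The prostaglandin synthase genes downstream of Ptgs2, Ptges and Ptgds, stood at -0.10 and -0.25, and the list had a median of -0.11 with 4 lower and 1 higher at the unadjusted p.

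Mfge8 encodes a secreted protein that bridges phosphatidylserine on dying cells to integrins of phagocytes. Its values were -1.07, -1.58 and -1.50 in KO and 0.49, 0.68 and 0.73 in WT. The gap between the groups was several times the SDs of 0.27 and 0.13 (n = 3 each). Mfge8 fell by 2.01 (SE 0.21; 95% interval -2.46 to -1.57; limma adjusted p = 0.000606). Its close relative Edil3 differed by -0.07 (adjusted p = 0.932). Tnfaip2, a gene induced by tumour necrosis factor, was the 1 gene of 40 measured alarmin, cytokine and chemokine genes that passed. KO arrays were at 0.00, -0.30 and -0.71 and WT arrays at 0.85, 0.55 and 0.67, a fall of 1.02 (SE 0.176; limma adjusted p = 0.0415). Tnfaip2 kept its call only without KO array 1 (limma adjusted p = 0.0195), and was at 0.0663 to 0.234 without each of the others. T cell receptor genes (median difference -0.29, 3 passed) and Langerhans cell genes (-0.13, none passed) also had medians below 0. Among numbers under 3000 and from 3000 up, these medians were -0.23 and -0.16 for the former and -0.053 and -0.057 for the latter. The part of either cell type in the differences of Rgs1, Ptgs2, Mfge8 and Tnfaip2 was not tested. The difference of Tnfaip2 was -1.35 among numbers of 3000 and more and -0.60 among those under 3000.

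The stretches just upstream of transcription starts were searched for the core of the AhR site, GCGTG, or CACGC on the other strand. RefSeq promoter entries (build GRCm38.p6) were available for 15 of the 23 genes, and 5 of these (33.3%) held the core within 250 bases before a start, against 37.2% of the 16990 measured genes with an entry. The share among the members is thus near the background. For the longer form TNGCGTG, which contains the core, the shares were 2 of 15 (13.3%) against 5.72%. In the list of known AhR targets, 7 of 14 genes with an entry held the core. Besides Ptgs2, Mfge8 and Tnfaip2, the genes with the core were Prkacb and Aen, each at only some of its entries' starts. The stretches of Ptgs2, Mfge8 and Tnfaip2 are shown as those of the genes with the core that fell the most, chosen after their values were seen, and that of Cyp1a1 because it is the classic target. Each runs 5′ to 3′ toward the start, in lower case with the core in capitals. They lie at chr1:150099781-150100030 (plus strand), chr7:79149061-79149310 (minus strand), chr12:111442411-111442660 (plus strand) and chr9:57697363-57697612 (plus strand).
Ptgs2: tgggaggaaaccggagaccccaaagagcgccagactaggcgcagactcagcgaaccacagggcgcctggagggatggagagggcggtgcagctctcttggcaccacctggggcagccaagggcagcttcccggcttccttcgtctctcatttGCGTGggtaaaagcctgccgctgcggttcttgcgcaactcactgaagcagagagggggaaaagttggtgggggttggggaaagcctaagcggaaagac
Mfge8: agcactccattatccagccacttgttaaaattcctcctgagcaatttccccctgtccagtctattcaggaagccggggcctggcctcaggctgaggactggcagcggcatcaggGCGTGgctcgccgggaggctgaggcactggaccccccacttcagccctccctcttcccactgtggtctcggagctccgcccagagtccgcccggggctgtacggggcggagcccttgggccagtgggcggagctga
Tnfaip2: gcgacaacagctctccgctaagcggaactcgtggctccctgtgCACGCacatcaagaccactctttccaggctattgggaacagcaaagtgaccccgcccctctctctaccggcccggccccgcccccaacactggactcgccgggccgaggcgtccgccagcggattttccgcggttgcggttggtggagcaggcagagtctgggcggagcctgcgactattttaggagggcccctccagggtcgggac
Cyp1a1: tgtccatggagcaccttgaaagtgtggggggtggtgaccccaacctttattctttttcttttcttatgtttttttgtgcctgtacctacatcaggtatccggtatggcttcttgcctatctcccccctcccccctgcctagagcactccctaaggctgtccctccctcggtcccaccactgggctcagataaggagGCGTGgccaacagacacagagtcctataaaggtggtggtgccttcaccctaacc
In Ptgs2 the core stands 98 bases before the start and is preceded by letters that complete TNGCGTG, and in Mfge8 it stands 136 bases before. Tnfaip2 has it on the opposite strand, 207 bases before the start. A match shows only that the letters are present.

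Known AhR targets were also compared in unstressed skin. Of 15 measured targets none passed, the median difference was -0.07, and 3 were lower and 1 higher at the unadjusted p. Of all genes, 4.77% were lower and 3.82% higher at that p. Cyp1a1, the cytochrome that clears AhR ligands, was at -0.24, -0.19 and -0.31 in KO and -0.04, 0.13 and 0.10 in WT. The arrays did not overlap, but the difference of -0.31 (SE 0.131; 95% interval -0.589 to -0.0289) had an adjusted p of 0.527. Nfe2l2, the regulator of antioxidant genes, differed by -0.41 (adjusted p = 0.126) and the aldehyde dehydrogenase gene Aldh3a1 by -0.53 (adjusted p = 0.286). Nqo1, a quinone reductase, stood at -0.17, Tiparp, which limits AhR activity, at -0.21, the repressor gene Ahrr at -0.07 and Cyp1b1 at 0.11. Serpinb2 had the most negative difference of all genes that did not pass, -2.27 (SE 1.72; adjusted p = 0.831), which came from 1 array: KO array 3 was at -5.86, and the other 5 arrays lay between -0.61 and 0.21.

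Ahr itself was lower in KO arrays (-0.13, 0.04 and -0.02) than in WT arrays (0.63, 0.16 and 0.07), by 0.32 (SE 0.143; adjusted p = 0.556), a value that did not pass. The null allele lacks an early part of the gene, and whether the row reads inside or outside that part is not known here, so the row is only a partial check of the labels. In stressed skin the same row differed by -1.11 at 6 h (limma adjusted p = 0.00549) and by -0.70 at 24 h (adjusted p = 0.22). Among its 15 measured partners and chaperones, none passed. Epas1, a relative that also pairs with ARNT, came nearest: its KO values of -0.33, -0.23 and -0.04 lay below the WT values of 0.21, 0.32 and 0.36, with a difference of -0.50 (SE 0.094; adjusted p = 0.0666). Arnt, the partner itself, differed by 0.10 (adjusted p = 0.91), with a sign that turned to -0.04 among arrays numbered under 3000. Of 156 measured genes within 20 Mb of Ahr, 0 passed, 19 (12.2%) had an unadjusted p under 0.05 against 8.48% of all rows, and the median difference was -0.0033.

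Krt1, which builds the filaments of differentiating keratinocytes with Krt10, was the 1 of 18 measured keratins that passed. Its values were -0.32, -0.39 and -0.53 in KO and 0.14, 0.23 and 0.41 in WT. Krt1 fell by 0.67 (SE 0.0996; limma adjusted p = 0.0212). Without KO array 2 or 3 or WT array 2 or 3 it did not pass (limma adjusted p from 0.0813 to 0.159). The partner keratin Krt10 differed by only -0.06 (95% interval -0.192 to 0.0628), and Krt2 and Krt77, which follow Krt1 in the same layers, by 0.02 and -0.07. Krt14, the filament gene of the basal layer, stood at -0.46 (adjusted p = 0.204).

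Keratins of wounded skin, which are not made between hair follicles in resting epidermis, had larger differences that did not pass. In them WT array 1 lay among the KO arrays or was the WT array nearest to them. Krt6a was at -2.65, -1.65 and -2.19 in KO and at -2.21, 0.09 and 0.30 in WT, so WT array 1 lay among the KO arrays. The difference of -1.55 (adjusted p = 0.604) was -2.84 among numbers under 3000 and 0.29 among numbers of 3000 and more. Krt16 differed by -1.86 (SE 0.477; adjusted p = 0.211), Sprr1b, a cornified envelope precursor, by -1.66 (adjusted p = 0.328) and the protease inhibitor gene Stfa1 by -1.09 (adjusted p = 0.703). In Krt16 and Sprr1b the KO arrays lay below all WT arrays, with WT array 1 nearest to them, whereas in Stfa1 WT array 1 (-1.98) was as low as KO array 3 (-1.98). Of 48 measured genes of the cornified envelope and late differentiation none passed, with a median difference of -0.08.

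**Figure D3:**
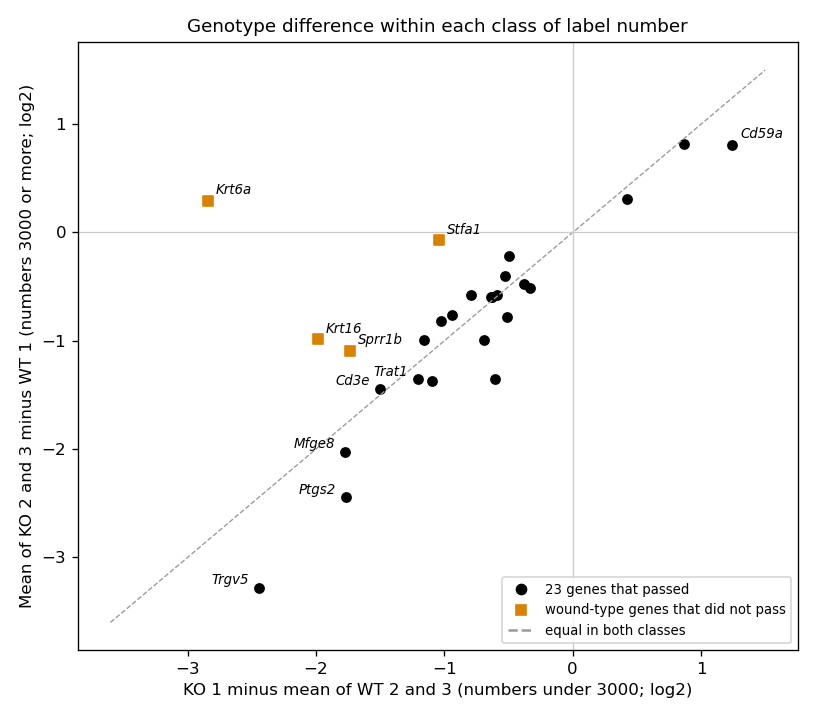
KO minus WT (log2) in unstressed skin among arrays with label numbers under 3000 (horizontal, KO array 1 against WT arrays 2 and 3) and of 3000 or more (vertical, KO arrays 2 and 3 against WT array 1). The 23 genes that passed (black circles) keep their sign in both, as they must where KO and WT arrays do not overlap. Krt6a (orange square), where the arrays overlap, was at -2.84 in one and 0.29 in the other.

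Smox encodes spermine oxidase, which breaks spermine down to spermidine and hydrogen peroxide. It was at -0.69, -0.68 and -0.81 in KO and 0.02, 0.09 and 0.40 in WT, with an SD of only 0.07 among KO arrays. Smox fell by 0.90 (SE 0.152; limma adjusted p = 0.0399), and kept its call only without WT array 1 (limma adjusted p = 0.031, and 0.0798 to 0.234 without each of the others). It was the 1 of 15 measured polyamine genes that passed. Srm, which makes spermidine, differed by -0.67 (adjusted p = 0.438) and Odc1, the first enzyme of the pathway, by -0.24 (adjusted p = 0.932).

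A further 7 genes fell by smaller amounts. Prkacb, a catalytic subunit of protein kinase A, fell by 0.61 (limma adjusted p = 0.0372), and Pde3b, which breaks down the cyclic AMP that activates that kinase, fell by 0.40 (limma adjusted p = 0.0435). The sister genes did not pass: Prkaca differed by -0.06 (95% interval -0.279 to 0.153) and Pde3a by -0.17 (adjusted p = 0.356). Prkacb was at -0.08, -0.18 and -0.03 in KO and 0.68, 0.28 and 0.58 in WT. Gpd2, the mitochondrial glycerol phosphate dehydrogenase, fell by 0.58 (limma adjusted p = 0.0415), and its cytosolic counterpart Gpd1 differed by -0.40 (adjusted p = 0.5). Avil (advillin, an actin-binding protein) fell by 0.57, Wsb2 (a ubiquitin ligase adaptor) by 0.49, Aen (a nuclease induced by p53) by 0.48 and Anp32b (a histone chaperone) by 0.36, with limma adjusted p from 0.0267 to 0.0435. Aen had the tightest KO arrays of these, at -0.43, -0.40 and -0.41 against 0.00, 0.10 and 0.09 in WT. A second row of Anp32b stood at -0.29 (adjusted p = 0.53), with WT array 1 among the KO arrays. Avil and Pde3b passed in none of the fits that left out an array (limma adjusted p from 0.0574 to 0.259), Prkacb and Gpd2 only in that without WT array 2 (0.00987 and 0.025), Aen and Anp32b only in that without WT array 1 (0.0261 and 0.0184), and Wsb2 only in those without KO array 1 or WT array 1 (0.0195 and 0.0409). In the RefSeq gene table Aen and Mfge8 are the only passing genes within 1 Mb of each other. The 3 measured genes between them, Isg20, Acan and Hapln3, differed by 0.05, -0.06 and -0.09 and did not pass.

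Of the 3 genes that passed and rose, Cd59a changed the most. It encodes a surface protein that stops complement from assembling its pore. KO arrays were at 0.91, 0.98 and 0.65 and WT arrays at 0.01, -0.31 and -0.36, so the lowest KO array was well above the highest WT array. Cd59a rose by 1.07 (SE 0.127; 95% interval 0.798 to 1.34; limma adjusted p = 0.00241). Its paralog Cd59b differed by 0.03 (95% interval -0.143 to 0.209; -0.03 among numbers under 3000), and Cd59a was the 1 of 22 measured genes of complement and its inhibitors that passed or was under 0.05 without adjustment.

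Fbxo32 encodes atrogin-1, a ubiquitin ligase subunit that FoxO factors switch on in starved or wasting muscle. Its values were 0.59, 1.01 and 0.71 in KO and 0.05, -0.25 and -0.31 in WT. Fbxo32 rose by 0.94 (SE 0.142; limma adjusted p = 0.0219). The call was lost without KO array 2 or 3 or WT array 2 or 3 (limma adjusted p from 0.0665 to 0.176). Of the 25 measured FoxO-type genes it alone passed, with a median difference of 0.22 over the list. At the unadjusted p, where 3.82% of all genes were higher and 4.77% lower, 0 of the list were lower and 7 were higher. These include Pik3ip1, an inhibitor of PI3 kinase, at 0.42 (adjusted p = 0.236), Ccng2 at 0.43 (adjusted p = 0.337) and the cell cycle inhibitor gene Cdkn1b at 0.35 (adjusted p = 0.513). Trim63, the other atrophy ligase of muscle, stood at -0.05 (adjusted p = 0.965). Lypd6b, a member of the Ly6 family of small surface proteins, was at 0.41, 0.39 and 0.38 in KO and 0.07, 0.01 and -0.02 in WT. Lypd6b rose by 0.37 (SE 0.0569; limma adjusted p = 0.0219), a small but even difference. It kept its call only without WT array 1 (limma adjusted p = 0.0215, and 0.0516 to 0.176 without each of the others). It was the 1 of 31 measured genes for epidermal proteases, inhibitors and Ly6-type proteins that passed.

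Several further gene groups leaned to one side with no member past the threshold. Among 38 measured cell cycle genes 7 were lower and 0 higher at the unadjusted p, and 6 of the 7 encode the MCM helicase that opens DNA for replication. Mcm2 differed by -0.64 (adjusted p = 0.107) and Mcm5 by -0.75 (adjusted p = 0.219), each with KO arrays below all WT arrays. The median over the whole cell cycle list was -0.10, at -0.04 among numbers under 3000 and -0.26 among those of 3000 and more. The list mean was -0.11, -0.16 and -0.03 in KO arrays 1 to 3, and 0.17, -0.14 and 0.07 in the WT arrays. Sebaceous and neutral lipid genes had a median of -0.30, which was -0.13 among numbers under 3000 and -0.47 among those of 3000 and more. Of these genes, 17 of 20 were below 0 and 5 were lower at the unadjusted p. Among them were Awat2 (-0.65), a wax synthase gene of the sebaceous gland, and Pparg (-0.38), the regulator of sebocyte and fat cell lipid genes. Interferon-stimulated genes had a median of 0.03, with 6 of 29 higher and 0 lower at the unadjusted p. The 3 with the smallest p were immunity-related GTPase genes, Irgm1 (0.59), Igtp (0.71) and Iigp1 (0.85), and in Iigp1 KO array 2 (1.56) stood far above KO arrays 1 and 3 (0.40 and 0.31). The lists of hair follicle, melanocyte, clock, NRF2 and glutathione, barrier lipid, desmosome and tight junction, basement membrane and immediate early genes had medians between -0.13 and 0.02 and no member that passed. At the unadjusted p, 4 of 13 basement membrane genes were lower and 1 higher, and 3 of 14 melanocyte genes were lower and 1 higher. The other lists named here had 0 to 4 lower and 0 to 2 higher. Of all genes, 4.77% were lower and 3.82% higher.

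**Figure D4:**
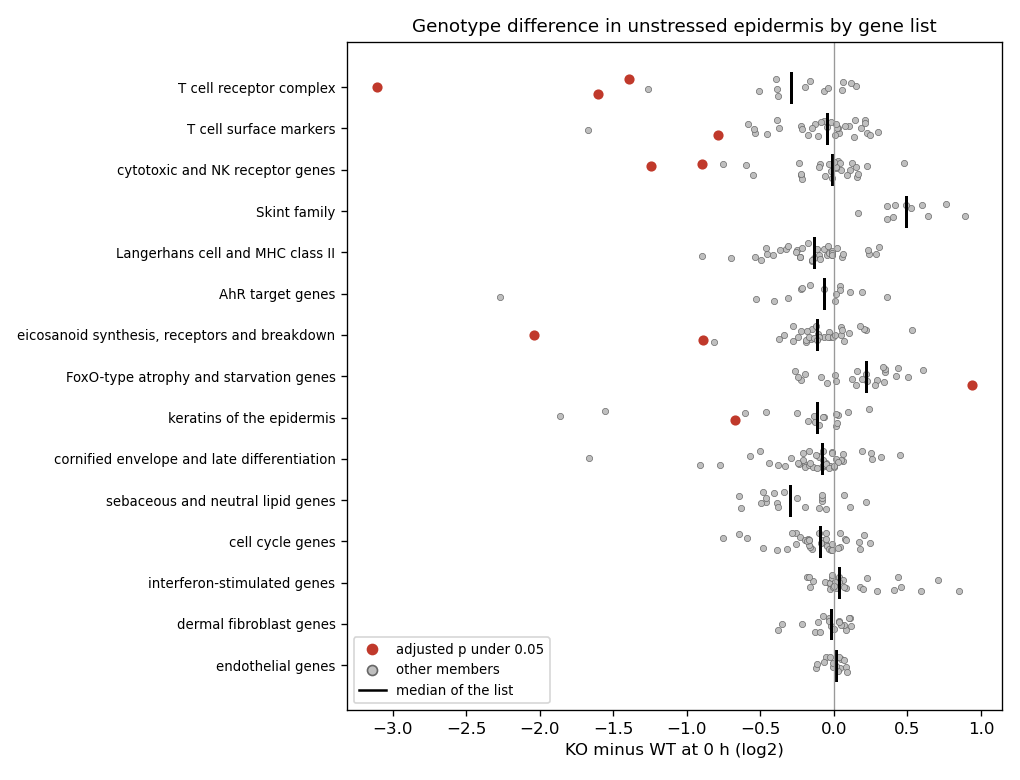
KO minus WT (log2) in unstressed skin for each measured member of 15 of the gene lists, with members that passed in red and the median of the list as a black bar. The Skint family lies wholly above 0 (median 0.49), and the T cell receptor list has its median at -0.29 with 3 members that passed, down to Trgv5 at -3.11.

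The largest positive differences did not pass. Pyy, a gut peptide hormone gene, differed by 1.76 (SE 0.448; adjusted p = 0.207), with KO at 0.82, 1.56 and 2.31 and WT at 0.07, -1.16 and 0.49. Angptl7, a secreted angiopoietin-like protein gene, differed by 1.55 (SE 0.298; adjusted p = 0.0747), with KO at 0.70, 1.26 and 1.48 and WT at -0.14, -0.14 and -0.94. In both genes all KO arrays lay above all WT arrays. Irgm2, Zbtb16 and Arrdc3 followed, small RNAs left aside, at 1.06, 0.99 and 0.98 (adjusted p from 0.156 to 0.22).

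The same genes can be read in the stressed skin of other KO and WT animals, 6 h and 24 h after tape stripping. Single T cell genes were again lower in KO, while the medians of their lists lay near 0. At 6 h, 6 of the 23 passed in the same direction (Trgv5, Cd3e, Trat1, Klrb1b, Prf1 and Il2rb), where 2.18% of all rows passed and 1.82% passed lower in KO, and at 24 h Trgv5 alone passed, where 0.017% of rows did. Trgv5 was at -1.67, -1.28 and -0.71 in KO and 1.59, 1.51 and 1.52 in WT at 6 h, and at -1.82, -1.65 and -2.05 against 1.48, 1.20 and 0.71 at 24 h. KO minus WT for Trgv5 was -2.76 (adjusted p = 0.00312) and -2.97 (adjusted p = 0.00122), close to its -3.11 at 0 h. Cd3e stood at -1.28 (adjusted p = 0.0152) and -1.40 (adjusted p = 0.0709). The median difference at 6 h and 24 h was -0.03 and -0.10 for the T cell receptor list, 0.03 and 0.0010 for T cell surface markers and -0.02 and 0.0040 for cytotoxic and NK receptor genes. Cd7, which did not pass at 0 h, was at -1.73 at 6 h (adjusted p = 0.0167) and -1.72 at 24 h. Of the 20 genes lower in KO at 0 h, 13 had all KO arrays below all WT arrays at 6 h (10.3% of all rows) and 12 at 24 h (6.53% of all rows). Over the 23 genes, 17 had the same sign at 6 h, 17 at 24 h and 15 at both times. The difference was smaller in size than at 0 h in 22 genes at 6 h and in all 23 at 24 h; the genes were chosen by their 0 h values.

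Ptgs2, Smox, Cd59a and Lypd6b had differences near 0 in stressed skin. Ptgs2 was at 0.39, -0.05 and -0.40 in KO and -0.05, -0.10 and 0.21 in WT at 6 h, with the groups overlapping, and the genotype difference was -0.04 at 6 h and 0.12 at 24 h. The change of the Ptgs2 difference from 0 h to 6 h was 2.00 but did not pass (adjusted p = 0.0668). Mfge8 kept its sign, at -0.48 (adjusted p = 0.269) and -0.84 (adjusted p = 0.407). Its KO arrays lay below all WT arrays at 24 h but overlapped them at 6 h. Smox went to 0.15 at both times. Cd59a was at 0.21 and -0.10, and Lypd6b at -0.01 and -0.0079.

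At 6 h the sign was opposite to that at 0 h in 6 of the 23 genes, and 2 of these, Fbxo32 and Anp32b, passed in that opposite direction. Fbxo32 was at -0.58, -0.57 and -0.71 in KO and 0.10, 0.46 and 0.42 in WT at 6 h, so that KO lay below WT with no overlap. That difference of -0.95 passed (adjusted p = 0.0102), opposite in sign to the 0.94 of unstressed skin, and was -0.29 at 24 h (adjusted p = 0.754). Anp32b was higher in KO at 6 h by 0.26 (adjusted p = 0.0452). Gpd2 and Pde3b stood at 0.21 and 0.17, with KO arrays above all WT arrays but no call (adjusted p = 0.332 and 0.255), and Smox and Lypd6b at 0.15 and -0.01. The change of the genotype difference between 0 h and 6 h was tested directly, and passed for 9 of the 23 genes, where 172 rows (0.731%) passed in all: Mfge8, Rgs1, Smox, Gpd2, Pde3b, Anp32b, Lypd6b, Fbxo32 and Cd59a. This test contains the 0 h values by which the genes were picked, so the 9 are given as a description. For the change between 0 h and 24 h limma passed 0 rows, with 2165 (9.2%) at an unadjusted p under 0.05, 17 of the 23 genes among them.

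**Figure D5:**
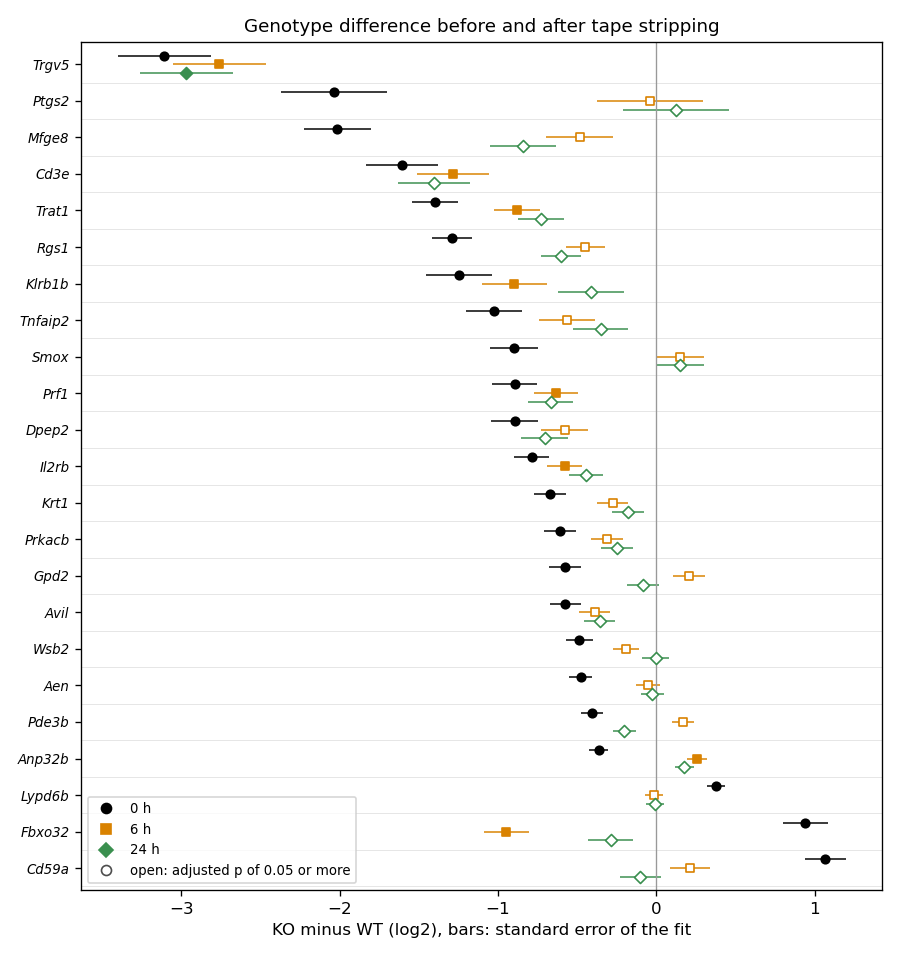
KO minus WT (log2) with the standard error of the fit for the 23 genes in unstressed skin (black circles) and 6 h (orange squares) and 24 h (green diamonds) after tape stripping; open symbols did not reach an adjusted p under 0.05. Trgv5 stays near -3 at all 3 times, Ptgs2 moves from -2.04 to -0.04 and 0.12, and Fbxo32 turns from 0.94 to -0.95 at 6 h.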

How the data were processed

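RNA of epidermal sheets from 18 mouse samples (3 per genotype and time) was read on Affymetrix gene arrays. The authors deposited 1 table of 33793 rows by 18 arrays, taken as log2 from the values, which run from -6.40 to 4.30, with every row median at 0; they could be natural logs, and the sources used here do not give the preprocessing. Of the rows, 23521 name 1 gene symbol (22180 genes), 1814 several and 8458 none. limma 3.58.1 in R 4.3.3 fitted a mean for each of the 6 groups over all 18 arrays (12 residual and 2.76 prior degrees of freedom), with 2-sided moderated tests and Benjamini-Hochberg adjustment over 23521 rows at 0.05. The fit was tested on simulated data. An exact permutation test of 3 against 3 cannot go below p = 0.1, so none is given. Beyond the use of littermates, nothing in the labels says how the samples of a group were bred or pooled. The p-values thus measure the spread between these samples, and the number of arrays limits precision. The 32 lists (847 members, 769 measured) come from general knowledge. Members and lists were chosen with earlier results of these data known. Genes named are those that passed, the 5 largest differences in each direction that did not, list members of smallest p, and paralogs. Ahr's neighbours were only counted, and their change between times is not described. Which list members to name was decided after their values were seen. Several rows per gene are shown by the row of largest SD, except where another passed (Anp32b). No row level remains, so dim rows could not be removed. Alternatives were other normalisations, variance priors, array weights, subsets of arrays and blocks.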

Additional observations from a re-analysis of the deposited data

Results flagged for a closer look

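In 16 named genes the genotype difference 6 h after tape stripping departed from that in unstressed skin by limma's test of the change itself (adjusted p under 0.05). Each of these tests uses the 0 h values by which most of the genes were chosen. The change was downward in Fbxo32 (-1.89; SE 0.2), Cdkn1b (-1.06), Skint1 (-0.99), Cd59a (-0.86), Pik3ip1 (-0.75) and Lypd6b (-0.39). It was upward in Pde3b (0.57), Anp32b (0.62), Gpd2 (0.78), Rgs1 (0.84), Smox (1.04), Mcm3 (1.07), Mcm2 (1.13), Mcm5 (1.30), Mfge8 (1.53) and Krt16 (3.50). The wound keratin gene Krt16 went from -1.86 at 0 h to 1.63 at 6 h, and the helicase genes Mcm2, Mcm3 and Mcm5 went from -0.64, -0.48 and -0.75 to 0.49, 0.59 and 0.55. The atrophy-type genes Fbxo32, Cdkn1b and Pik3ip1 went the other way, from 0.94, 0.35 and 0.42 to -0.95, -0.71 and -0.33, as did Skint1, from 0.52 to -0.47. Of 16 alternatives, the change passed in 16 for Fbxo32 and in 14 for Anp32b, while it passed in 5 for Lypd6b and in 6 for Cd59a and Mcm5. No gene changed sign in any of them.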

How the results depend on the processing

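The 23 genes that passed kept their sign under all 23 alternatives. The sign was fixed in advance where arrays were left out or weighted, because these genes had no overlap between genotypes at 0 h. A change of prior leaves the difference as it is. Leaving out 1 array at a time gave 5 to 59 passing rows at 0 h, 2 to 749 for the change from 0 h to 6 h, and 0 to 32 for the change to 24 h. The count at 0 h (23) was 15 after quantile normalisation of the deposited values and 188 with array weights. It was 13 with arrays of 0 h and 6 h, 6 with those of 0 h and 24 h, 47 among rows of SD above the median, and 0 with the 0 h arrays alone. It was 1 with arrays numbered under 3000, 0 with those of 3000 and more, and 0 without the 2 WT arrays under 3000. It was 20 with the number class as a block, 17 of them among the 23. Without WT array 1 and KO array 3, an alternative chosen after seeing the data, it was 9. For the change to 6 h (172) it was 79 with all rows tested, 95 with a robust prior, 864 with array weights and 429 among rows of larger SD. For the change to 24 h (0) it was 3 after quantile normalisation, 9 with array weights and 30 among rows of larger SD. Of the 23 genes, those passing at 6 h (8) were 4 after quantile normalisation, and those at 24 h (1) were 3 with the number class as a block or among rows of larger SD. The cause of these shifts was not tested. Replicate numbers were not taken as pairs. After the mean of its group was taken from each array, same-numbered KO and WT arrays of 0 h correlated at -0.458 to 0.04. Differently numbered ones correlated at -0.331 to 0.464. With 3 arrays per group such deviations sum to 0 in each row, so these values cannot settle whether samples were paired. With the replicate block 8 rows passed at 0 h, 49 for the change to 6 h, and 5 of the 23 genes at 6 h.

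Of the 84 genes for which every alternative was recorded, signs turned in 9, none of which had passed. Outside these 84, the sign within a class of numbers also differed from the pooled sign in Klrb1c, Rgs2, Rgs16, Prkaca, Trim63, Trgv6 and Zap70, which did not pass either. With arrays numbered under 3000, Arnt was at -0.038 and Cd59b at -0.026. With arrays of 3000 and more, Ahrr was at 0.023, Cyp1b1 at -0.24, Krt6a at 0.29 and Xist at -0.37. Without the 2 WT arrays under 3000, H2-Eb1 was at 0.024, Ahrr at 0.051, Cyp1b1 at -0.36, Krt6a at 0.045, Stfa1 at 0.29 and Xist at -0.66. Leaving out 1 array at a time gave -0.0045 to 0.17 for Arnt, -0.46 to 0.072 for Odc1, -0.044 to 0.086 for Cd59b and -0.073 to 0.34 for Cyp1b1; the turned signs came without KO array 2 in the first 3 and without WT array 2 in Cyp1b1. The cause was not tested.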
